A study of Mus musculus with 10 samples.

Results

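The genes described here are 10 genes of bile acid synthesis and of its feedback control in the liver: the sterol hydroxylases *Cyp7a1*, *Cyp27a1*, *Cyp7b1* and *Cyp8b1*, the ring-modifying enzymes *Hsd3b7* and *Akr1d1*, the conjugating enzymes *Slc27a5* and *Baat*, and the nuclear receptors *Nr1h4* and *Nr0b2*. They were chosen by symbol, as genes of the pathway, with earlier results of these data known, as were the lists below. All 10 were found among the 24052 gene symbols counted, and all 10 passed the filter on low values that left 11208 genes to test. RNA was sequenced from 10 whole livers of mice labelled C57BL/6 (the methods name C57BL/6N for the backcross) and fed ad libitum, 5 labelled wild type and 5 labelled with a deletion of exon 4 of *Ndrg3* (Ndrg3 LKO), with 1 library per liver. In Ndrg3 LKO mice a floxed *Ndrg3* was recombined by Cre under the albumin promoter, so other cells of the liver could keep the gene. The last cross described paired Ndrg3 f/+; Alb-Cre with Ndrg3 f/f mice, and the labels do not name the *Ndrg3* or Cre alleles of the controls. The mice were 8 to 10 weeks old by the methods and 10 to 12 weeks old by a legend. For gene expression by sequencing, the paper's legend gives 5 wild-type and 4 Ndrg3 LKO livers and does not say which. The methods name male mice unless stated otherwise. *Ddx3y*, a gene of the Y chromosome, was at 45.9 to 99.6 CPM in the 10 livers, and *Xist* was at 0.112 CPM or less. CPM values of livers are counts scaled to the size of the library and to its TMM factor, a scaling between libraries.

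Hepatocytes clear cholesterol by turning it into bile acids. In the classical route *Cyp7a1*, the rate-limiting enzyme, hydroxylates cholesterol in the endoplasmic reticulum, and in the alternative route the mitochondrial enzyme *Cyp27a1* acts on the side chain before *Cyp7b1* hydroxylates the ring. *Hsd3b7* and *Akr1d1* reshape the ring, and *Cyp8b1* adds the hydroxyl group that makes cholic acid. *Slc27a5* and *Baat* activate bile acids and join them to taurine or glycine. *Nr1h4* encodes FXR, the receptor that senses bile acids, and its target *Nr0b2* encodes SHP, a corepressor of *Cyp7a1* and *Cyp8b1*.

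Of the 10 genes, 8 fell in Ndrg3 LKO livers and 0 rose, where 23.0% of all genes tested fell and 25.6% rose (Benjamini-Hochberg adjusted p under 0.05 by the quasi-likelihood test of edgeR). No gene of the 10 rose at an unadjusted p under 0.05 either (0 by edgeR, 0 by DESeq2 and 0 by limma). Without Ndrg3 LKO replicate 5, described next, the counts were again 8 and 0 and stood against 27.2% of genes that fell and 28.4% that rose, 55.6% in all. The median log2 fold change of the 10 genes was -2.17, and that of all genes tested was 0.031. *Cyp8b1*, *Akr1d1*, *Cyp7b1*, *Cyp27a1*, *Nr0b2* and *Slc27a5* fell by more than 2 on the log2 scale, as did 2.63% of all genes. *Baat* and *Cyp7a1* fell by less, and *Hsd3b7* and *Nr1h4* did not pass the test. For 6 of the 10 genes the highest Ndrg3 LKO value was under the lowest wild-type value, which held for 15.9% of all genes tested, and groups were apart in either direction for 31.5%.

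Ndrg3 LKO replicate 5 stood apart from the other Ndrg3 LKO livers, and results for the 10 genes are therefore given with and without it. It was singled out in these same data, so standard errors and adjusted p without it can be too small and are a description. On the first principal component of all genes it lay at 14.1, with Ndrg3 LKO replicates 1 to 4 between 51.1 and 56.6 and wild-type livers between -49.9 and -43.0. Between 20872262 and 24747870 reads were counted per wild-type liver and between 23474693 and 30450057 per Ndrg3 LKO liver. The targeted gene *Ndrg3* was at 15.9 to 21.9 CPM in the controls and at 7.07 to 9.16 CPM after deletion, over counts of the whole gene, and replicate 5 was at 8.25. Of 8 hepatocyte genes 7 fell (8 without replicate 5), where 23.0% of all genes tested fell. After quantile normalization only 3 of them fell and 1 rose. Their summed level was 155949 to 189466 CPM in wild-type livers, 41740 to 50201 in Ndrg3 LKO replicates 1 to 4 and 166531 in replicate 5. All 6 macrophage genes rose (summed level 56.2 to 135 against 136 to 427 CPM), as did 5 of 6 endothelial and 4 of 6 stellate cell genes. Of all genes tested 25.6% rose. Without replicate 5 the counts for these cell types were the same, against 28.4% of all genes. The summed levels were 49.3 to 63.8 against 99.0 to 140 CPM for endothelial genes and 106 to 170 against 199 to 277 CPM for stellate cell genes. Of 6 bile duct genes 5 passed the filter: *Spp1* rose, *Sox9* fell and the others did not pass the test. The summed level of the 6 was 38.5 to 71.7 against 51.0 to 220 CPM, mostly from *Spp1* (33.9 to 56.4 against 44.2 to 205 CPM). Of 6 lymphocyte genes only *Ptprc* passed the filter, and it rose; *Ms4a1* had 0 counts in some livers, and the sums were 2.94 to 4.29 against 4.29 to 12.6 CPM. The 3 proliferation genes rose (0.786 to 2.12 against 5.46 to 33.3 CPM). The part of these shifts in the results was not tested, and fewer hepatocytes and less RNA per hepatocyte cannot be told apart in whole liver.

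The sequences just before the transcription start are shown for the genes that fell and have an entry in RefSeq's promoter table (GRCm38.p6), to let their sequence be set beside their levels. Such an entry exists for 6 of the 10 genes. Each of the windows printed is the 250 bases before the start, written 5′ to 3′ on the gene's strand, and each matched 1 place on its chromosome of NCBIM37 (mm9), the build the reads were mapped to. The windows lie at chr9:121825424-121825673 on the minus strand for *Cyp8b1*, chr1:74759859-74760108 on the plus strand for *Cyp27a1*, chr6:37479923-37480172 on the plus strand for *Akr1d1* and chr4:133109041-133109290 on the plus strand for *Nr0b2*, and hold no annotated exon. Capitals mark letters searched on both strands: CAAAGTCCA (the core bound by HNF4A), CAAGG (the core bound by NR5A2), AGGTCA (a nuclear receptor half-site) and TTATGNAA. The last is a loose form of the D-box core bound by DBP, since N stands for any base.
Cyp8b1: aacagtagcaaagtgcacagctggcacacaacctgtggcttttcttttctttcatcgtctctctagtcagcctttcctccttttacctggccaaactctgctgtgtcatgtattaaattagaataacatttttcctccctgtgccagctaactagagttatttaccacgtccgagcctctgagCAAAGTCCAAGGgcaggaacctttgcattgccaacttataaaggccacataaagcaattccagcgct
Cyp27a1: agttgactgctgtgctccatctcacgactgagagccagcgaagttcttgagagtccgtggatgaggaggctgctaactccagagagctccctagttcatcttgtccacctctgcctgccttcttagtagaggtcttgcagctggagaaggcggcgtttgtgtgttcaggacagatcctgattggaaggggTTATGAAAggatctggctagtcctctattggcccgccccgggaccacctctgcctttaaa
Akr1d1: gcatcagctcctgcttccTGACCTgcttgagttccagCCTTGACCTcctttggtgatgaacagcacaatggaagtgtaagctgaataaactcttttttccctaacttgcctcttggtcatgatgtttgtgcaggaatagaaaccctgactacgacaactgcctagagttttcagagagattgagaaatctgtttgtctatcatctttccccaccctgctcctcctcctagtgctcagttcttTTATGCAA
Nr0b2: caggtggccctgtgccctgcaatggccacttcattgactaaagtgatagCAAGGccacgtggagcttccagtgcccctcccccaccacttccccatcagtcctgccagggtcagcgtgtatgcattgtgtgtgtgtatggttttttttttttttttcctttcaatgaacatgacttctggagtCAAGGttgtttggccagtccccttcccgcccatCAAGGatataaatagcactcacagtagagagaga

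The letters CAAAGTCCA stood 67 bases before the start of *Cyp8b1* and overlapped CAAGG, which began 60 bases before it. CAAAGTCCA occurs in 0.384% of the 32851 promoter windows of this length in the table, CAAGG in 46%, AGGTCA in 14% and TTATGNAA in 3.07%. *Nr0b2* held CAAGG 3 times, at 201, 67 and 34 bases before the start. *Akr1d1* held AGGTCA 2 times on the opposite strand, the one at 210 overlapping CAAGG, and TTATGNAA directly before the start. *Cyp27a1* held only TTATGNAA, 60 bases before the start, with A in place of N, where *Akr1d1* has C. In the genes that did not pass the test, the window of *Hsd3b7* held CAAGG once and that of *Nr1h4* AGGTCA once. Unlike the windows printed, both lie inside the annotated span of their gene, and that of *Hsd3b7* overlaps an annotated exon of it. The letters searched were chosen after the windows had been seen, and a match is not a measured site.

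*Cyp8b1*, a gene of 1 exon on chromosome 9 (mm9, 121823474 to 121825423, minus strand), fell furthest. Wild-type replicates 1 to 5 had 663, 712, 528, 384 and 656 TMM-normalized CPM, from 8354 to 14577 counts. Ndrg3 LKO replicates 1 to 5 had 1.49, 0.315, 0.566, 3.22 and 102 CPM, from 52, 13, 22, 113 and 2154 counts. The groups did not overlap, and the first 4 Ndrg3 LKO livers were at 0.0535% to 0.547% of the mean of the controls, while replicate 5 was at 17.2%. The log2 fold change was -4.79 (SE 1.40, adjusted p = 0.0144 by edgeR), and -8.74 without replicate 5 (SE 0.65, adjusted p = 9.97e-07 by edgeR), a difference of 27.7-fold and 429-fold.

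*Akr1d1*, the reductase that gives the ring of bile acids its bent shape, came next (chromosome 6, 37480173 to 37518815, plus strand). It was at 247, 122, 167, 182 and 122 CPM in wild-type replicates 1 to 5 and at 2.99, 1.91, 6.05, 1.77 and 57.6 CPM in Ndrg3 LKO replicates 1 to 5. Again no Ndrg3 LKO liver reached the wild-type range and replicate 5 was nearest to it. The log2 fold change was -3.60 (SE 0.93, adjusted p = 0.00750 by edgeR) and -5.73 without replicate 5 (SE 0.42, adjusted p = 9.54e-07 by edgeR). *Hsd3b7*, which acts on the ring before it, did not follow. It had 307, 274, 207, 250 and 229 CPM in wild-type livers and 319, 209, 212, 208 and 166 CPM in Ndrg3 LKO livers. Replicate 1 of the Ndrg3 LKO group was above every wild-type liver and replicate 5 was below every one. Its log2 fold change was -0.19 (95% interval -0.59 to 0.21, adjusted p = 0.418 by edgeR), and it was 0.35 with scaling by library size and 0.053 after quantile normalization. Without replicate 5 the log2 fold change of *Hsd3b7* was -0.11 (adjusted p = 0.606 by edgeR). The annotated span of *Hsd3b7* (chromosome 7, 134929122 to 134947316, plus strand) overlaps *Setd1a* on the same strand. The effect of this overlap on its counts was not tested.

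**Figure D1:**
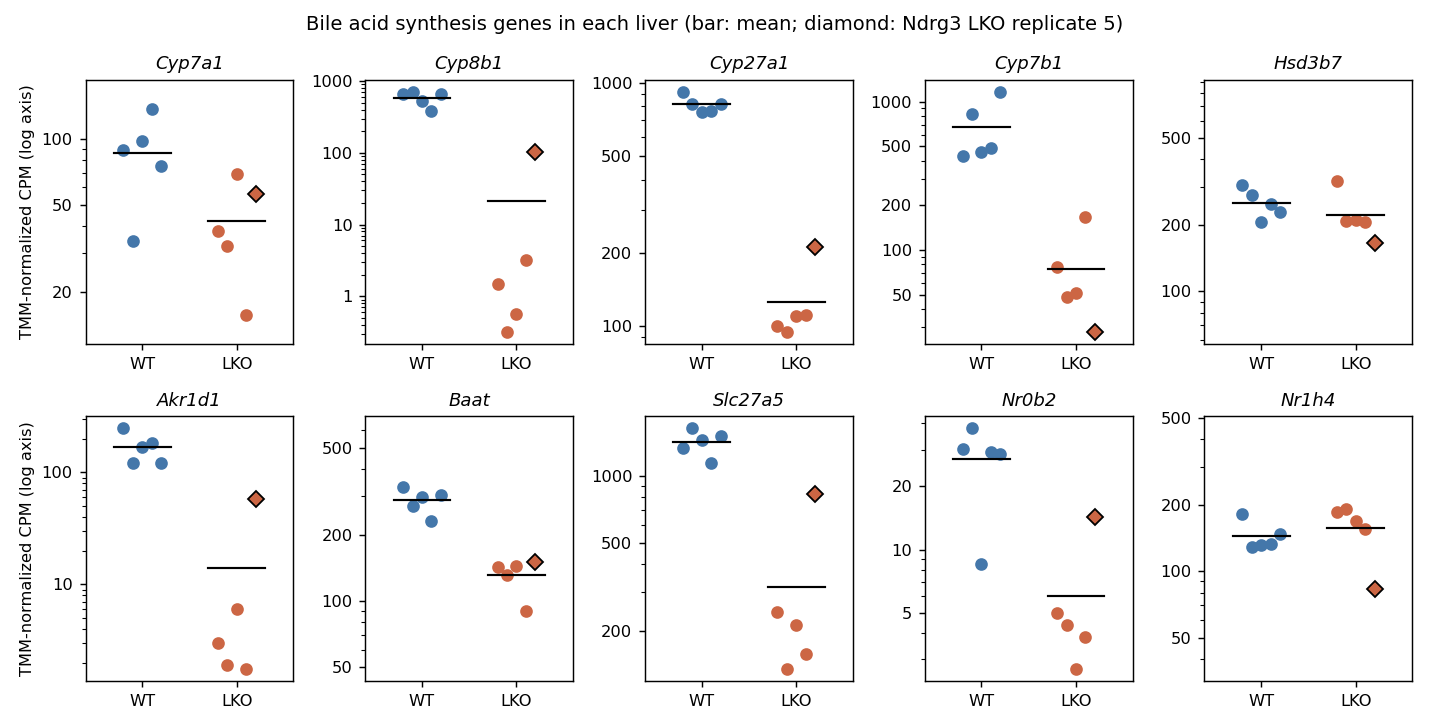
TMM-normalized CPM on log axes of the 10 genes in each of the 5 wild-type (WT, blue) and 5 Ndrg3 LKO (LKO, orange) livers, with a point per liver, a bar for the group mean and a black-edged diamond for Ndrg3 LKO replicate 5. For *Cyp8b1*, *Cyp27a1*, *Cyp7b1*, *Akr1d1*, *Baat* and *Slc27a5* every Ndrg3 LKO liver lies below every wild-type liver, and for *Cyp8b1* and *Akr1d1* the diamond lies far above the other Ndrg3 LKO livers.

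The hydroxylases that open the routes fell by unequal amounts. *Cyp27a1* (chromosome 1, 74760148 to 74784464, plus strand) had 918, 820, 761, 768 and 821 CPM in wild-type livers and 101, 94.6, 111, 111 and 211 CPM in Ndrg3 LKO livers. These were the tightest values of the 4 hydroxylases, with a log2 fold change of -2.702 (SE 0.23, adjusted p = 9.56e-06 by edgeR) and -2.98 without replicate 5 (SE 0.14, adjusted p = 8.80e-08 by edgeR). *Cyp7b1* (chromosome 3, 17971950 to 18143338, minus strand) had 427, 828, 454, 484 and 1166 CPM in wild-type livers and 76.6, 47.8, 51.1, 166 and 27.9 CPM in Ndrg3 LKO livers. Here replicate 5 was the lowest of all 10 livers, at 4.15% of the wild-type mean. The log2 fold change was -3.19 (SE 0.48, adjusted p = 3.37e-04 by edgeR), and -2.99 without replicate 5 (adjusted p = 1.77e-04 by edgeR). For *Cyp8b1*, *Akr1d1*, *Cyp27a1* and *Cyp7b1*, as for *Baat* and *Slc27a5*, an exact permutation test (2-sided) of all 10 livers gave p = 0.00794, which is the lowest that groups of 5 and 5 can reach.

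*Cyp7a1* (chromosome 4, 6192759 to 6202780, minus strand) changed least among the hydroxylases. It was at 88.5, 34.1, 97.3, 136 and 75.3 CPM in wild-type replicates 1 to 5 and at 38.1, 32.5, 68.8, 15.8 and 55.9 CPM in Ndrg3 LKO replicates 1 to 5. The groups overlapped, since wild-type replicate 2 was below 3 Ndrg3 LKO livers. Its log2 fold change was -1.03 (SE 0.39, adjusted p = 0.0460 by edgeR), and the exact permutation test gave p = 0.0635. The call rested on single livers. Without wild-type replicate 1, 3, 4 or 5 or Ndrg3 LKO replicate 1, 2 or 4 the adjusted p was 0.0725, 0.0801, 0.113, 0.0581, 0.0897, 0.0859 and 0.0796. Without wild-type replicate 2 it was 0.0154, and without Ndrg3 LKO replicate 5 it was 0.0319, at a log2 fold change of -1.16. *Cyp7a1* also missed the threshold with library size scaling (-0.55, adjusted p = 0.240 by edgeR), with upper quartile scaling (0.0564), after quantile normalization (0.0679 by limma) and with a mean of at least 5 CPM required (0.0617).

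*Slc27a5*, the ligase that activates bile acids for conjugation (chromosome 7, 13573695 to 13583541, minus strand), had 1341, 1638, 1454, 1139 and 1508 CPM in wild-type livers and 242, 134, 212, 157 and 830 CPM in Ndrg3 LKO livers. Replicate 5 was at 58.6% of the wild-type mean and the other 4 Ndrg3 LKO livers were at 9.49% to 17.1%. The log2 fold change was -2.17 (SE 0.46, adjusted p = 0.00243 by edgeR), and -2.94 without replicate 5 (SE 0.21, adjusted p = 8.08e-07 by edgeR). *Baat*, which joins the activated bile acid to its amino acid (chromosome 4, 49502294 to 49519429, minus strand), had 332, 272, 298, 231 and 304 CPM in wild-type livers and 143, 132, 145, 90.4 and 151 CPM in Ndrg3 LKO livers. Unlike *Slc27a5*, *Baat* in replicate 5 was close to the other Ndrg3 LKO livers. It fell by 1.12 on the log2 scale (SE 0.17, adjusted p = 2.89e-04 by edgeR) and by 1.18 without replicate 5.

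Of the feedback genes, the target fell and the receptor did not. *Nr0b2* (chromosome 4, 133109291 to 133112451, plus strand) had 30.3, 37.8, 8.57, 29.3 and 28.5 CPM in wild-type livers and 4.97, 4.39, 2.703, 3.85 and 14.3 CPM in Ndrg3 LKO livers. The groups overlapped through 2 livers, the low wild-type replicate 3 and the high Ndrg3 LKO replicate 5. The log2 fold change was -2.18 (SE 0.47, adjusted p = 0.00286 by edgeR, with p = 0.0159 in the exact permutation test), and -2.77 without replicate 5 (adjusted p = 6.93e-05 by edgeR). *Nr1h4* (chromosome 10, 88916979 to 88996330, minus strand) had 182, 129, 133, 134 and 148 CPM in wild-type livers and 187, 193, 170, 157 and 83.5 CPM in Ndrg3 LKO livers. Ndrg3 LKO replicates 1 and 2 lay above all 5 wild-type livers, replicates 3 and 4 above 4 of them, and replicate 5 below all of them. The log2 fold change of *Nr1h4* was 0.12 (95% interval -0.33 to 0.58, adjusted p = 0.645 by edgeR), and 0.27 without replicate 5 (adjusted p = 0.108 by edgeR). Scaling by library size alone, which moved the median over all genes to 0.56, gave 0.70 for *Nr1h4* (adjusted p = 0.0352 by edgeR), or 0.14 relative to that median.

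**Figure D2:**
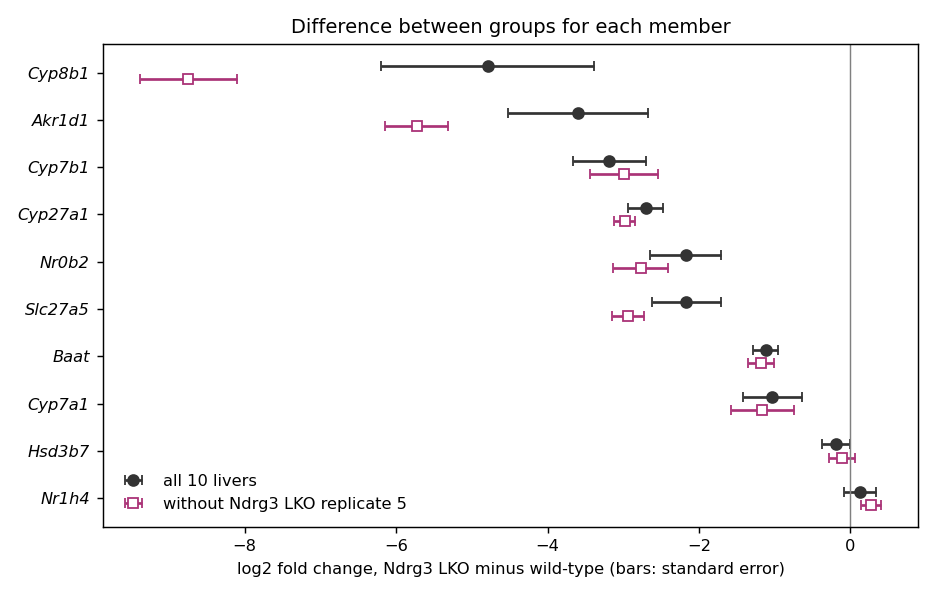
Log2 fold change of each of the 10 genes, Ndrg3 LKO minus wild-type, from edgeR's fit of all 10 livers (filled circles) and of 9 livers without Ndrg3 LKO replicate 5 (open squares), with bars for the standard error. *Cyp8b1* moves from -4.79 to -8.74 and *Akr1d1* from -3.60 to -5.73 without that liver, while *Cyp7b1* moves from -3.19 to -2.99 and *Hsd3b7* and *Nr1h4* stay near 0.

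Replicate 5 was not evenly nearer to the wild-type livers across the pathway. It was the highest Ndrg3 LKO liver for *Cyp8b1*, *Akr1d1*, *Cyp27a1*, *Slc27a5*, *Nr0b2* and *Baat*, and the lowest for *Cyp7b1*, *Hsd3b7* and *Nr1h4*. In this liver *Cyp27a1* stood at 25.9% and *Cyp7b1* at 4.15% of the wild-type mean. Of the 8 hepatocyte genes, 5 were below every wild-type liver in replicate 5, from *Fga* at 40.6% to *Tf* at 85.3% of the wild-type mean, and the summed level of the list within the wild-type range was carried by *Alb*, at 107850 CPM. Among Ndrg3 LKO replicates 1 to 4, replicate 4 held the highest *Cyp8b1* and *Cyp7b1* and the lowest *Cyp7a1*, *Akr1d1* and *Baat*.

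**Figure D3:**
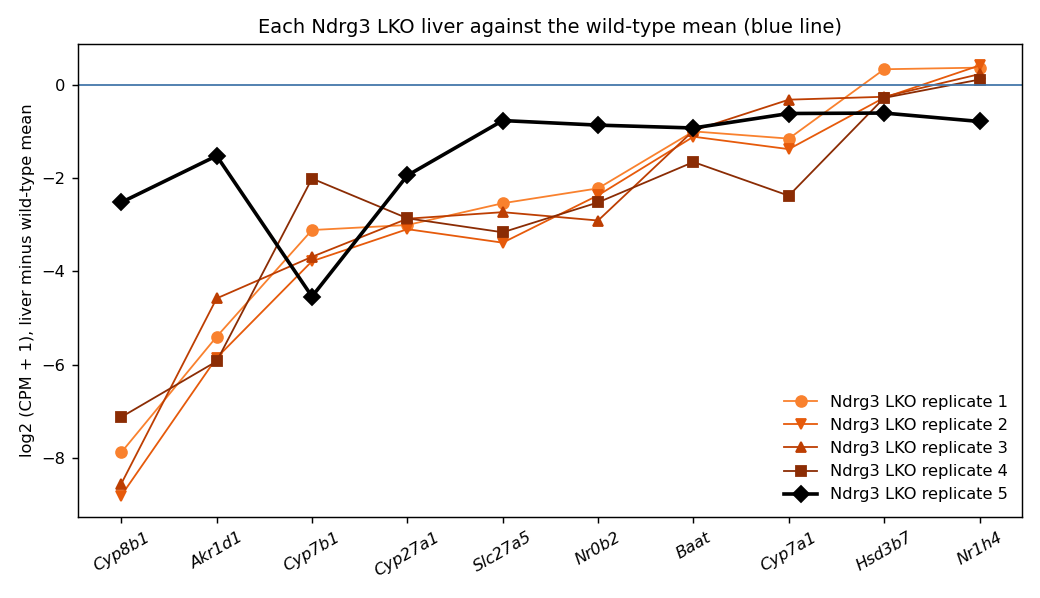
Log2(CPM + 1) of the 10 genes in each Ndrg3 LKO liver minus the log2 of the wild-type mean plus 1 (blue line at 0), with a line per liver and replicate 5 in black. Replicate 5 lies well above them at *Cyp8b1*, *Akr1d1*, *Cyp27a1*, *Slc27a5* and *Nr0b2* and below them at *Cyp7b1*, *Hsd3b7* and *Nr1h4*.

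Ratios of counts within a liver do not depend on the scaling between libraries, and are given as a description. In wild-type livers *Cyp8b1* had 2.82 to 20.9 times the counts of *Cyp7a1*, and in Ndrg3 LKO livers 0.00823 to 1.82 times, so the groups did not overlap. The log2 ratio averaged 2.87 ± 1.05 (SD, n = 5) and -3.94 ± 3.27 (SD, n = 5). Against *Cyp27a1*, *Cyp8b1* was at -0.50 ± 0.30 (SD, n = 5) and -5.62 ± 2.83 (SD, n = 5) on the log2 scale, and replicate 5, at -1.06, was just below the lowest wild-type liver at -1.001. *Cyp7a1* rose relative to the alternative route on average, by 1.70 against *Cyp27a1* and by 2.27 against *Cyp7b1* on the log2 scale, but the groups overlapped in both ratios. *Cyp7b1* against *Cyp27a1* differed by -0.57, within the spread of -1.10 to 0.51 in wild-type livers and -2.92 to 0.57 in Ndrg3 LKO livers. Without replicate 5, the lowest, the Ndrg3 LKO mean of this ratio was -0.48 and the wild-type mean was -0.40. Without it the Ndrg3 LKO means of *Cyp8b1* against *Cyp7a1* and against *Cyp27a1* were -5.14 and -6.76, and those of *Cyp7a1* against *Cyp7b1* and *Cyp27a1* were -1.13 and -1.61. *Baat* against *Slc27a5* ran from -2.59 to -2.01 in the controls and from -0.80 to -0.024 in the first 4 Ndrg3 LKO livers, with replicate 5 at -2.46, inside the wild-type range. *Nr0b2* against *Nr1h4* showed the same split, with -3.95 to -1.77 in wild-type livers, -5.97 to -5.23 in replicates 1 to 4 and -2.55 in replicate 5. Of the 7 ratios, 2 were apart between the groups.

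**Figure D4:**
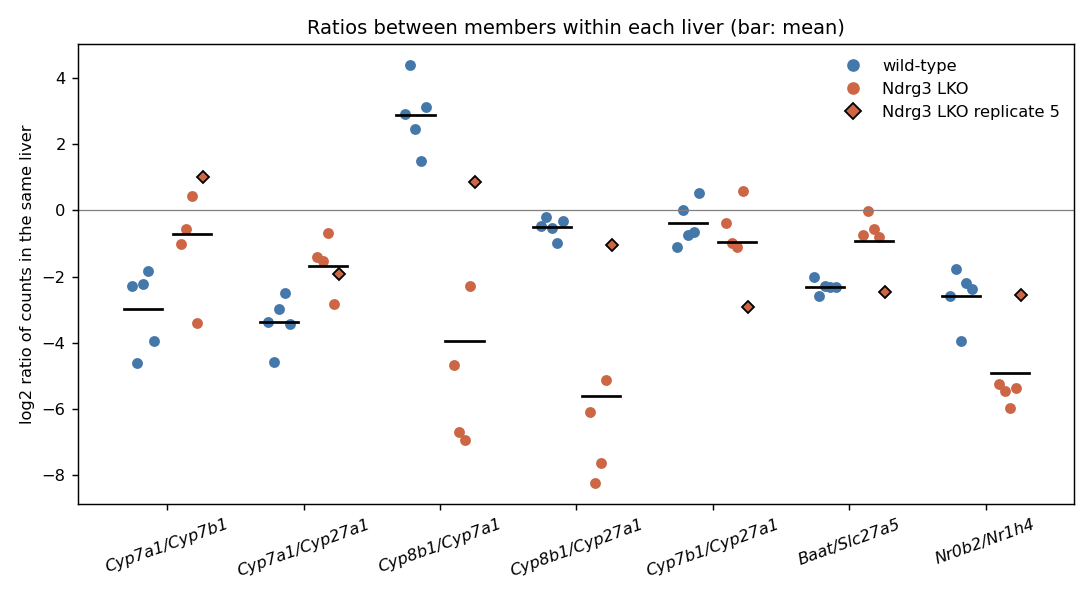
Log2 ratio of the counts of 2 genes in the same liver for 7 pairs, with a point per liver, a bar for the group mean and a black-edged diamond for Ndrg3 LKO replicate 5. Wild-type livers (blue) and Ndrg3 LKO livers (orange) are apart for *Cyp8b1/Cyp7a1* and *Cyp8b1/Cyp27a1*, and the diamond falls within the wild-type points for *Baat/Slc27a5* and *Nr0b2/Nr1h4*.

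Levels of different genes were set side by side only as CPM per kb of merged annotated exons. In wild-type livers the order of mean levels ran from *Slc27a5* (579 ± 77.0, SD, n = 5) through *Cyp27a1* (433 ± 33.2), *Cyp7b1* (310 ± 148), *Cyp8b1* (302 ± 68.3), *Baat* (148 ± 19.8), *Nr1h4* (63.0 ± 9.62), *Akr1d1* (57.6 ± 17.7), *Hsd3b7* (41.2 ± 6.31) and *Nr0b2* (23.8 ± 9.62) to *Cyp7a1* (20.7 ± 8.86). The ranges of neighbours overlapped except between *Cyp8b1* and *Baat*, between *Baat* and *Nr1h4*, and between *Hsd3b7* and *Nr0b2*. The exons of *Hsd3b7* include transcripts that start in the span of *Setd1a*, which lengthens it to 6154 bp and lowers its level per kb. In Ndrg3 LKO livers *Slc27a5* was still highest by the mean (129 ± 119 CPM per kb, SD, n = 5), but *Nr1h4* (68.6 ± 19.1) and *Baat* (68.1 ± 12.5) came next, and without replicate 5 *Nr1h4* (76.7) and *Slc27a5* (76.2) were level. *Cyp8b1* dropped to 10.99 CPM per kb, and to 0.717 without replicate 5, the lowest mean of the 10 genes over those 4 livers, below *Akr1d1* at 1.09, although *Akr1d1* was the lower of these in replicate 4.

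Most of the other genes of bile acid synthesis that could be tested fell as well. Of 15 listed, 13 passed the filter, and of these 8 fell and 2 rose, where 23.0% and 25.6% of all genes did, with a median log2 fold change of -1.004. Without replicate 5, 9 fell and 2 rose, against 27.2% and 28.4% of all genes. *Cyp2c70*, the mouse enzyme that makes muricholic acids, fell most, from 952 ± 273 to 93.3 ± 45.4 CPM (SD, n = 5 each; log2 fold change -3.35, adjusted p = 3.23e-05 by edgeR). The peroxisomal oxidase of the side chain, *Acox2*, fell by 1.53 on the log2 scale (adjusted p = 0.00197 by edgeR), and *Slc27a2*, a peroxisomal acyl-CoA synthetase, by 1.33 (adjusted p = 2.35e-04 by edgeR). For both the groups did not overlap, with *Acox2* in replicate 5 at 158 CPM against 51.1 to 69.1 in the other Ndrg3 LKO livers and 173 to 306 in wild-type livers. *Cyp39a1*, which hydroxylates the oxysterol that *Cyp46a1* makes, rose from 87.3 ± 25.0 to 211 ± 45.9 CPM (SD, n = 5 each; log2 fold change 1.27, adjusted p = 6.24e-04 by edgeR). Its lowest Ndrg3 LKO value, 173 CPM, was above its highest control value, 117 CPM. *Acnat2*, an acyltransferase related to *Baat*, rose by 2.11 on the log2 scale (adjusted p = 0.00208 by edgeR). Its near copy *Acnat1* fell by 1.204 (adjusted p = 3.63e-04 by edgeR). How reads shared by these copies affected either count was not tested. *Acnat2* overlapped between the groups, since replicate 5, at 14.3 CPM, lay within the wild-type range of 5.33 to 18.1 CPM. *Cyp46a1* and *Ch25h*, the other sterol hydroxylases, were under the filter on low values and not in the edgeR fit. *Cyp46a1* had 16 to 43 counts in wild-type livers and 0 to 4 counts in Ndrg3 LKO livers, so the groups were apart (exact permutation test, 2-sided p = 0.00794).

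Regulators of the pathway changed about as often as all genes did, 7 of 16 against 48.6%, with 4 higher and 3 lower (7 and 1 with library size scaling, and 4 and 3 without replicate 5). *Hnf4a*, a nuclear receptor that activates *Cyp7a1* and *Cyp8b1*, fell from 688 ± 72.2 to 230 ± 75.8 CPM (SD, n = 5 each), a log2 fold change of -1.58 (adjusted p = 1.34e-04 by edgeR). Its level was 181 to 227 CPM in Ndrg3 LKO replicates 1 to 4 and 362 in replicate 5, all below the wild-type minimum of 589. *Mafg*, a repressor that FXR induces, fell by 0.93 on the log2 scale (adjusted p = 0.00162 by edgeR) and *Nr1h3*, the oxysterol receptor LXR alpha, by 0.60 (adjusted p = 0.00730 by edgeR). *Nr1d1* and *Dbp*, transcription factors of the circadian clock that act on *Cyp7a1*, rose by 3.28 (adjusted p = 3.02e-04 by edgeR) and 2.40 (adjusted p = 7.72e-04 by edgeR) on that scale. *Nr1d1* was at 5.90 to 19.4 CPM in wild-type livers, 103 to 188 in replicates 1 to 4 and 21.4 in replicate 5. The coactivator *Ppargc1a* rose by 2.76 (adjusted p = 7.04e-05 by edgeR), and *Foxa2* was the other gene that rose. *Nr5a2*, *Fgfr4* and *Klb*, which carry the LRH-1 and FGF15 inputs to *Cyp7a1*, did not pass the test (log2 differences of 0.12, 0.21 and -0.19, edgeR adjusted p of 0.752, 0.382 and 0.456). The time of day at which livers were taken is not given in the sources used here. The annotation places *Sphk2* opposite *Dbp* and *Thra* opposite *Nr1d1*, and the strand setting of the counting is not given.

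Of 6 transporters of bile acids and bile lipids, the uptake carriers *Slco1b2* and *Slc10a1* fell by 2.92 (adjusted p = 1.83e-05 by edgeR) and 1.32 (adjusted p = 1.68e-04 by edgeR) on the log2 scale. *Abcb11*, the bile salt export pump (-0.35, adjusted p = 0.0700 by edgeR), and *Abcb4*, which moves phosphatidylcholine into bile (0.32, adjusted p = 0.334 by edgeR), did not pass the test in all 10 livers. Without replicate 5 they had log2 fold changes of -0.41 (adjusted p = 0.0338 by edgeR) and 0.50 (adjusted p = 0.0280 by edgeR). *Slc51a* had 0 counts in all 10 livers, and *Slc51b* was too low to test. The genes named above as risen or fallen among the other synthesis genes, regulators and transporters kept their direction and an edgeR adjusted p under 0.05 without replicate 5, with log2 fold changes from -3.58 for *Cyp2c70* to 3.53 for *Nr1d1*, and with -1.97 for *Acox2*, -1.82 for *Hnf4a* and 2.33 for *Acnat2*.

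**Figure D5:**
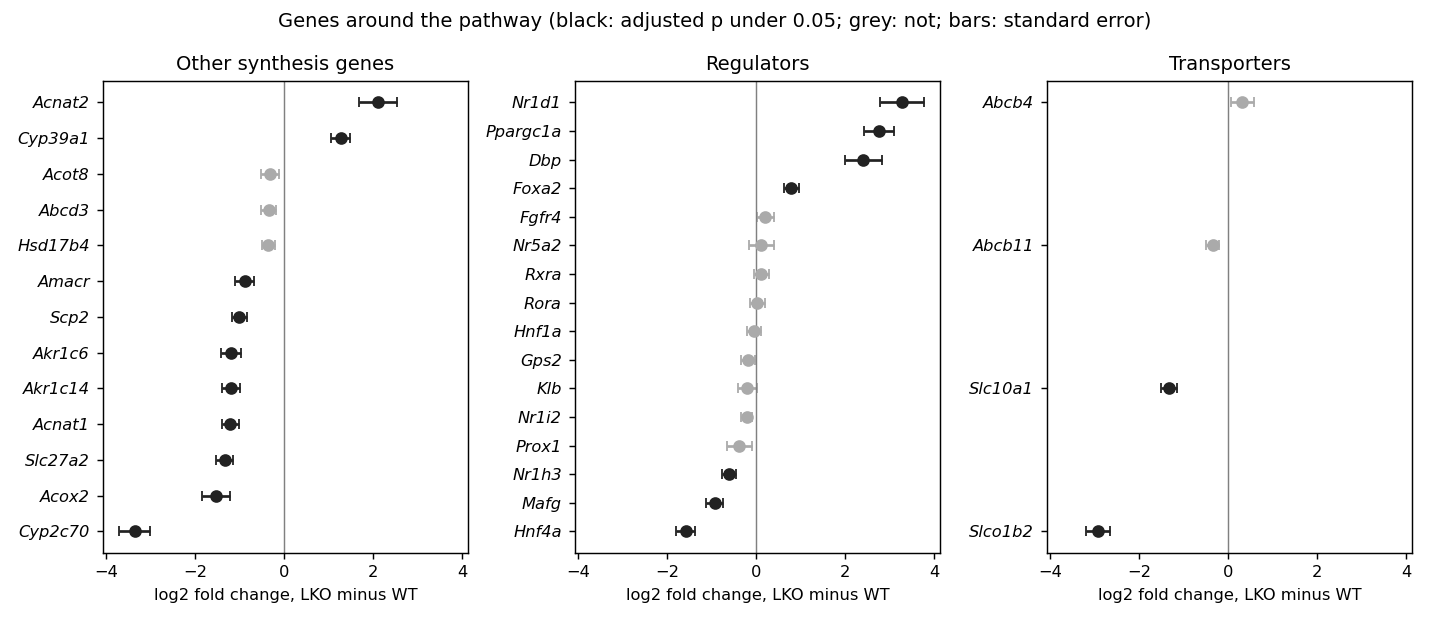
Log2 fold change, Ndrg3 LKO minus wild-type in all 10 livers, of 13 other synthesis genes, 16 regulators and 4 transporters, with bars for the standard error, black where the edgeR adjusted p was under 0.05 and grey where it was not. *Cyp2c70* and *Slco1b2* lie near -3, *Nr1d1*, *Ppargc1a* and *Dbp* between 2.40 and 3.28, and most regulators lie near 0.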

How the data were processed

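RNA of 10 livers, 5 per group, was sequenced as 100 bp paired reads from a stranded mRNA kit. The authors mapped the reads to mm9 with STAR (2.7.3a in the submitters' processing notes; the methods name another version) then counted reads for every gene. What they deposited are whole-number counts, although the files are titled CPM. The annotation and the strand setting of the counting are not given in the sources used here. The filter kept genes that reached 1 CPM in 5 or more livers (4 or more where 1 liver was left out), which were tested with edgeR 4.0.16 in R 4.3.3, with TMM and the quasi-likelihood test, wild-type against Ndrg3 LKO, Benjamini-Hochberg adjustment and a threshold of 0.05. Per-liver values are CPM after TMM, and the exact permutation tests enumerated all 252 splits of log2(CPM + 1). Standard errors are the log2 fold change over the square root of its F statistic. Coordinates come from GENCODE's annotation of NCBIM37 (mm9). DESeq2 1.42.0 and limma 3.58.1 were alternatives, and the fits of these tools were checked on simulated counts.

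The members and lists were chosen with earlier results of these data known. Named were the 10 members, the 3 largest rises and 3 largest falls among changed genes of each list, the 5 genes most correlated with *Cyp7a1* and with *Cyp7b1*, and *Ndrg3*; some items are not reported here. *Acnat1*, *Foxa2*, *Nr5a2*, *Fgfr4*, *Klb*, *Abcb11*, *Abcb4*, *Slc51a*, *Slc51b*, *Cyp46a1*, *Ch25h*, *Spp1*, *Sox9*, *Ptprc*, *Ms4a1*, *Fga*, *Tf* and *Alb* were added to the text once their values were known. The files list *Tf* as *Trf* and *Adgre1* as *Emr1*. Depth limits only the lowest values: 3 counts were 0.0727 to 0.179 CPM, for counting error only. No 2 livers of a group were the same library: over 20 pairs, chi-square per degree of freedom was 27.2 to 543.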

Additional observations from a re-analysis of the deposited data

Results flagged for a closer look

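Dixon's test was run 20 times, on each gene in the 5 livers of each group. In 5 of these tests 1 liver lay farther from its nearest neighbour than the critical value of 0.710 of the range. Chance flags about 1 in 20 independent tests, but these tests share livers and are not independent. In each of the 5 it was Ndrg3 LKO replicate 5, as the highest of its group: *Cyp8b1* at 102 CPM, *Cyp27a1* at 211 CPM, *Akr1d1* at 57.6 CPM, *Slc27a5* at 830 CPM and *Nr0b2* at 14.3 CPM. The 20 most abundant genes took 26.6% of the counts in this liver, 16.3% to 17.3% in the other Ndrg3 LKO livers and 26.2% to 28.0% in wild-type livers. The part of this liver's overall profile in these values was not tested.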

How the results depend on the processing

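The falls of *Cyp8b1*, *Cyp27a1*, *Cyp7b1*, *Akr1d1*, *Baat*, *Slc27a5* and *Nr0b2* kept their direction and an adjusted p under 0.05 in all 21 alternatives, but the size of some changed. With all 10 livers *Cyp8b1* moved from -4.79 to -6.95 with limma, -7.72 with a pseudocount of 0.1 and -8.11 with the replicate block, *Akr1d1* from -3.60 to -5.21 with that block, and *Baat* from -1.12 to -0.60 with library size scaling. *Cyp7a1* kept its direction in all 21 but passed in 9, with an adjusted p between 0.0154 and 0.240, so the count of genes lower was 7 or 8. *Hsd3b7* changed direction with library size scaling (0.35) and quantile normalization (0.053). With library size scaling 1 gene rose, *Nr1h4*, and 5821 of all genes were higher and 1010 lower, against 2865 and 2578 with TMM. No listed gene that passed the test reversed its direction under another scaling, but some differences shrank or vanished. After quantile normalization *Alb* showed no difference between the groups, and *Tf* was at -0.033 on the log2 scale. Requiring a log2 fold change beyond 1 left 2301 of 5443 changed genes and 4 of 7 changed regulators. With 1 liver left out, 4703 to 6360 genes changed. Same-numbered livers did not deviate together (mean correlation -0.22). A block for the replicate number gave 4412 changed genes, and 7 of the 10 genes fell and *Cyp7a1* was at -1.01 (adjusted p = 0.0770 by edgeR). No other call among the 10 genes changed with the block. The cause of these differences was not tested.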

Other observations

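Among the genes whose levels over the 10 livers were most like those of *Cyp7a1*, of 7157 with a mean of at least 10 CPM, were *Rsrc2* (Pearson's r = 0.92), *Chac2* (0.91), *Zfand1* (0.91) and *Slc35a5* (0.90). For *Cyp7b1* the 5 most alike were *Cela1* (0.98), *Hsd3b5* (0.97), *Kat8* (0.97), *Mup7* (0.97) and *Apoa5* (0.97). The livers share a group difference, so these are descriptions over 10 points. Within the 5 wild-type livers alone the correlation with *Cyp7a1* was 0.82 for *Rsrc2*, and with *Cyp7b1* it was 0.87 for *Cela1* and 0.52 for *Hsd3b5*.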
